A study of Mus musculus with 2 samples.

Results

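Cfd, Car3, Adipoq and Plin1 are genes that fat cells transcribe at high levels, and they were examined together as 4 of the 14714 genes measured in single cells of mouse aortas. They were chosen by their measured UMI counts, which lay almost entirely in one of the libraries and in one cluster, so their differences between libraries and clusters are given as a description. The cells came from enzymatically digested aortas and were sequenced as 10x droplets with 3' tags. The EC-iDKO_Apoe_KO library (below, the double knockout) came from mice lacking Apoe in which 2 further genes can be deleted in endothelial cells by induction, as its name is read here. The Apoe_KO library came from mice with the Apoe knockout alone. Both groups therefore lacked Apoe, and both ate a western diet for 12 weeks. There was 1 library per genotype. The sources used here name neither the deleted endothelial genes, the Cre driver, the age and sex of the mice nor the number of mice per library. No target transcript was checked for that reason.

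White adipocytes store triacylglycerol in a large droplet coated by perilipin 1, the product of Plin1, which controls the access of lipases to the stored fat. They also secrete proteins termed adipokines. Adiponectin, from Adipoq, is a circulating hormone that raises insulin sensitivity, and adipsin, or complement factor D, from Cfd, is the serine protease that cleaves factor B in the alternative complement pathway. Car3 encodes carbonic anhydrase 3, a cytosolic enzyme abundant in mouse adipocytes and in slow skeletal muscle. Adipocytes are not part of the intima or media of the aorta, but fat surrounds the adventitia of the vessel.

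The 4 protein-coding genes lie on different chromosomes. In GENCODE M21 (GRCm38), Cfd spans chr10:79890853-79892655 on the plus strand, Car3 chr3:14863512-14872523 on the plus strand, Adipoq chr16:23146536-23158028 on the plus strand and Plin1 chr7:79720218-79732903 on the minus strand. No other annotated gene overlapped any of them. Promoter windows of 300 bases are shown for the 3 members with a RefSeq entry (GRCm38.p6), because the members' UMIs lay in the same cells. Each is written 5′ to 3′ on the strand of its gene, with matches to the searched motifs in capitals.
Cfd, chr10:79890603-79890902, plus strand: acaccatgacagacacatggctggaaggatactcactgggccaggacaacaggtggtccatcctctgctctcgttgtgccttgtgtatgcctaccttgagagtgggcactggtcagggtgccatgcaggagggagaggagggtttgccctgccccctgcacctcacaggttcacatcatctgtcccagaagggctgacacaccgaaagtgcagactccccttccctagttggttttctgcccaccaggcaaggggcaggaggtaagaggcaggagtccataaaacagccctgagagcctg
Adipoq, chr16:23146286-23146585, plus strand: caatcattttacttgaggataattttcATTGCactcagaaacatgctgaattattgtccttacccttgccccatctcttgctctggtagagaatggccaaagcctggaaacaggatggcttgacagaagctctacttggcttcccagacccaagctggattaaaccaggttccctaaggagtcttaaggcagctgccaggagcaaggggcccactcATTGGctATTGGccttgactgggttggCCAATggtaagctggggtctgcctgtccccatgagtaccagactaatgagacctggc
Plin1, chr7:79732727-79733026, minus strand: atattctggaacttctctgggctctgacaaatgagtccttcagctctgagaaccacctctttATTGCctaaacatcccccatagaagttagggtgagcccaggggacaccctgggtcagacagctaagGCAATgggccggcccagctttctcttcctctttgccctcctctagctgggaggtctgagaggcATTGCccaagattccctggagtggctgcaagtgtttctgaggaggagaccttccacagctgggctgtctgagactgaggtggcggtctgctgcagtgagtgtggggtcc
The motifs searched on both strands were AGGTCA (the nuclear receptor core bound by PPAR and RXR dimers), ATTGC (the C/EBP core), CCAAT (the CCAAT box), TATAAA (the TATA box) and CACGTG (the E-box). The Adipoq window held ATTGC at positions -223 to -219 and CCAAT 3 times, at -34 to -30 and -27 to -23 on the reverse strand and at -7 to -3. Plin1 held ATTGC at -188 to -184, at -122 to -118 on the reverse strand and at -59 to -55, while the Cfd window held none of the 5 letter strings. No match overlapped another. Of 32851 RefSeq promoters of this length, 26.4% held ATTGC, 37.4% CCAAT, 16.3% AGGTCA, 13.6% TATAAA and 7.15% CACGTG, so a match in these windows is common and is only a description of the letters.

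The double knockout library held 5489 cells and 6853185 UMIs (unique molecular identifiers, the count of transcript molecules), with a median of 769 UMIs and 499 genes per cell. The Apoe_KO library held 2428 cells and 13304762 UMIs, with a median of 3769.5 UMIs and 1662 genes per cell. The median mitochondrial share was 3.99% in the double knockout and 4.80% in Apoe_KO. Only 5 cell barcodes occurred in both libraries, and they held 0 UMIs of the 4 genes. The deposited clusters (numbered 0 to 20) and classes (SMC, smooth muscle; EC, endothelial; modEC; fibroblast; immune/inflam) were kept as labelled.

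All 4 genes were present in the double knockout library and absent or nearly absent in the deeper Apoe_KO library. Cfd had 3020 UMIs in the double knockout, or 441 CPM (counts per 1000000 UMIs; 95% Poisson interval 425 to 457), against 0 UMIs in Apoe_KO. Set against a floor of 3 UMIs over the Apoe_KO library, which corresponds to 0.225 CPM, this was at least 1954-fold higher. Car3 had 1346 UMIs in the double knockout, or 196 CPM (186 to 207), against 0 in Apoe_KO, at least 871-fold higher. These are the 2 highest ratios among the 9681 genes with at least 100 UMIs over both libraries.

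Adipoq had 163 UMIs in the double knockout (23.8 CPM) and 1 UMI in Apoe_KO (0.0752 CPM), a ratio of 316 with a wide interval, 56.0 to 12575, set by that single UMI. Plin1 was scarce, with 22 UMIs in the double knockout (3.21 CPM, 2.01 to 4.86) and 0 in Apoe_KO, at least 14.2-fold higher. The order Cfd, Car3, Adipoq, Plin1 holds for CPM in the double knockout, where no interval meets that of its neighbour. A 3' tag counts molecules without a length term.

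A gene was called higher (or lower) where it differed by 1.5-fold or more and the interval of the ratio left out 1, among the 13257 genes with at least 20 UMIs over both libraries. By that rule 4 of the 4 genes were higher, as were 9.53% of all genes tested, while 13.1% were lower. Ratios of 8 or more were found for 0.317% of genes. Nothing is read from the members' calls, since this contrast chose them. With 1 library per genotype there is no replicate, and no p-value was computed. In the library sums, a larger number of sampled cells of a type and more RNA per cell cannot be told apart.

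UMIs of the 4 genes were found in few cells. Of 5489 double knockout cells, 142 held Cfd (2.59%, exact interval 2.18 to 3.04), 82 held Car3 (1.49%), 39 held Adipoq (0.711%) and 11 held Plin1. Of 2428 Apoe_KO cells, 1 held Adipoq (0.0412%), in cluster 6, and 0 held Cfd, Car3 or Plin1, which allows a share of up to 0.124% (3 cells of the total). The genes occurred together. In the double knockout, 163 cells held at least 1 of the 4 genes, 68 held at least 2, 36 held at least 3 and 7 held all 4.

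The 4 genes shared 1 location, deposited cluster 15 of the double knockout. It held 2901 of 3020 Cfd UMIs (96.1%, 95.3 to 96.7), 1316 of 1346 Car3 UMIs (97.8%, 96.8 to 98.5), 157 of 163 Adipoq UMIs (96.3%, 92.2 to 98.6) and 21 of 22 Plin1 UMIs (95.5%, 77.2 to 99.9). Cluster 15 held 80 cells in each library. In the double knockout its 106301 UMIs gave 27290.4 CPM of Cfd, 12379.9 of Car3, 1477 of Adipoq and 198 of Plin1. In Apoe_KO its 183957 UMIs held 0 of each gene, a limit of 16.3 CPM at 3 UMIs. The clusters were made from these genes among others, so the contrast of cluster 15 with the rest is a description.

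**Figure D1:**
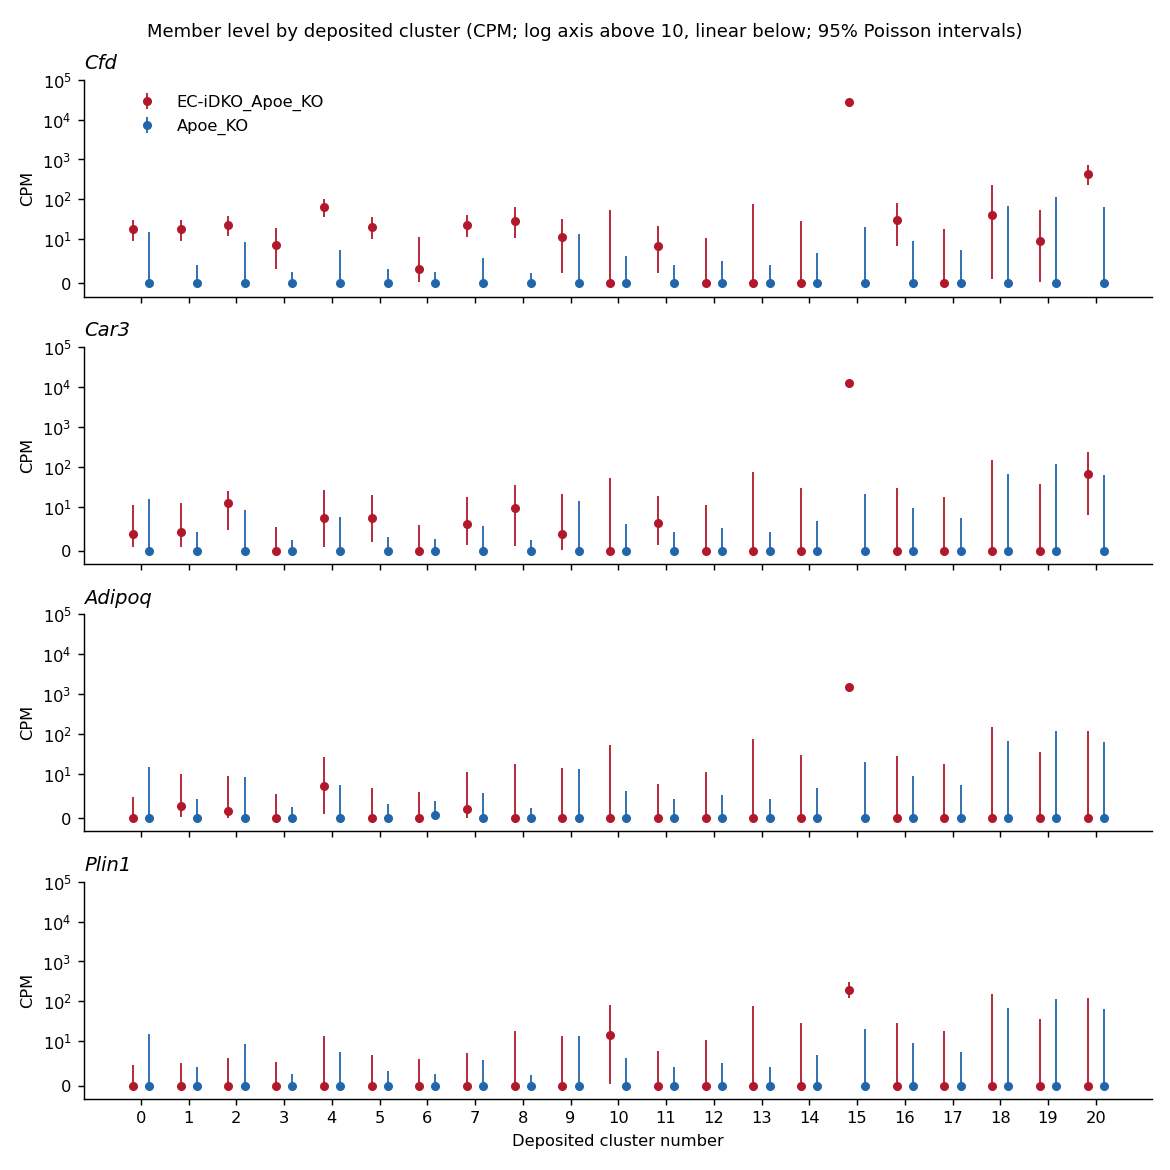
CPM of Cfd, Car3, Adipoq and Plin1 (y axes; log scale above 10 CPM, linear below) in each deposited cluster (x axis), for the EC-iDKO_Apoe_KO library (red, left of each pair) and the Apoe_KO library (blue, right); bars are exact 95% Poisson intervals. In cluster 15 the double knockout stands at 27290.4 CPM for Cfd while Apoe_KO holds 0 UMIs of all 4 genes there, and cluster 20 comes next for Cfd at 431 CPM.

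Among the 21 double knockout clusters, Cfd was next highest in cluster 20, a small cluster of 27 cells labelled EC, with 13 UMIs and 431 CPM (230 to 737). That interval meets neither that of cluster 15 nor that of cluster 4, at 62.5 CPM (36.4 to 100.1). From cluster 4 downwards each interval overlapped that of the next cluster, so the order of neighbouring clusters cannot be read. Further apart some intervals did not meet, such as those of cluster 4 and cluster 0 (9.68 to 29.7). The 14 clusters besides 15 and 20 that held any Cfd lay between 3.21 and 62.5 CPM, on 1 to 17 UMIs each. In 5 clusters (10, 12, 13, 14 and 17; 455 cells) Cfd was at 0, with limits of 8.88 to 61.5 CPM, and cluster 13 carries the immune/inflam label. The single Plin1 UMI outside cluster 15 was in cluster 10.

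Within cluster 15, every UMI of the 4 genes lay in the 59 cells of the double knockout that carry the SMC class name. The other 21 double knockout cells of the cluster, 16 modEC and 5 immune/inflam, held 0 UMIs of each gene. In Apoe_KO the same cluster number was made up of 39 modEC, 20 SMC, 20 immune/inflam and 1 EC cell. The same cluster number thus held different mixtures of classes in the 2 libraries.

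Of these 59 cells, 4 with more than 5000 UMIs carried most of the transcripts. They held 1980 Cfd UMIs (65.6% of the library's), 866 Car3 (64.3%), 102 Adipoq (62.6%) and 14 Plin1 (63.6%). From the deepest cell to the shallowest, they had 10765, 10672, 8080 and 6737 UMIs and 2844, 2765, 2431 and 2245 genes. Cfd had 632, 556, 406 and 386 UMIs in them, and Car3 had 288, 233, 181 and 164. Adipoq had 38, 22, 22 and 20 UMIs, and Plin1 7, 5, 1 and 1. The 4 genes made up 8.96%, 7.65%, 7.55% and 8.48% of each cell's UMIs. The cells were alike in Cfd, with 50.2 to 58.7 UMIs per 1000.

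The SMC label of these 4 cells went against their transcripts. Acta2, the actin of smooth muscle, had 2, 3, 1 and 22 UMIs in them, a median of 0.233 per 1000 UMIs, against 22.2 per 1000 in the SMC cells of the double knockout outside cluster 15. Summed over 9 smooth muscle markers they reached 1738 CPM, against 58650 CPM in those SMC cells. All 12 measured adipocyte markers had UMIs in the 4 cells and summed to 119021 CPM, against 282 CPM in SMC cells outside the cluster. Without Cfd, Car3, Adipoq and Plin1, the other 8 markers summed to 37320 CPM in the 4 cells and 261 CPM in the SMC cells outside the cluster. All 10 macrophage markers were at 0, and of 12 endothelial markers only Fabp4, which adipocytes also transcribe, was above 0. The 4 cells are called adipocyte-like below. Their mitochondrial share was 11.7%, 14.7%, 15.0% and 15.4%, above the library median of 3.99%.

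The 10 genes with the highest fold in the 4 cells over the SMC cells outside cluster 15, with at least 20 UMIs in the 4 cells, were Car3, Cidec, Retn, Mrap, Cfd, Cyp2e1, Acsm3, Adipoq, Pck1 and Hp. Cidec encodes a droplet protein that lets lipid droplets fuse, Retn the mouse adipokine resistin, and Mrap an accessory protein of melanocortin receptors. Pck1 encodes the cytosolic PEP carboxykinase that makes glycerol phosphate for triacylglycerol in fat.

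**Figure D2:**
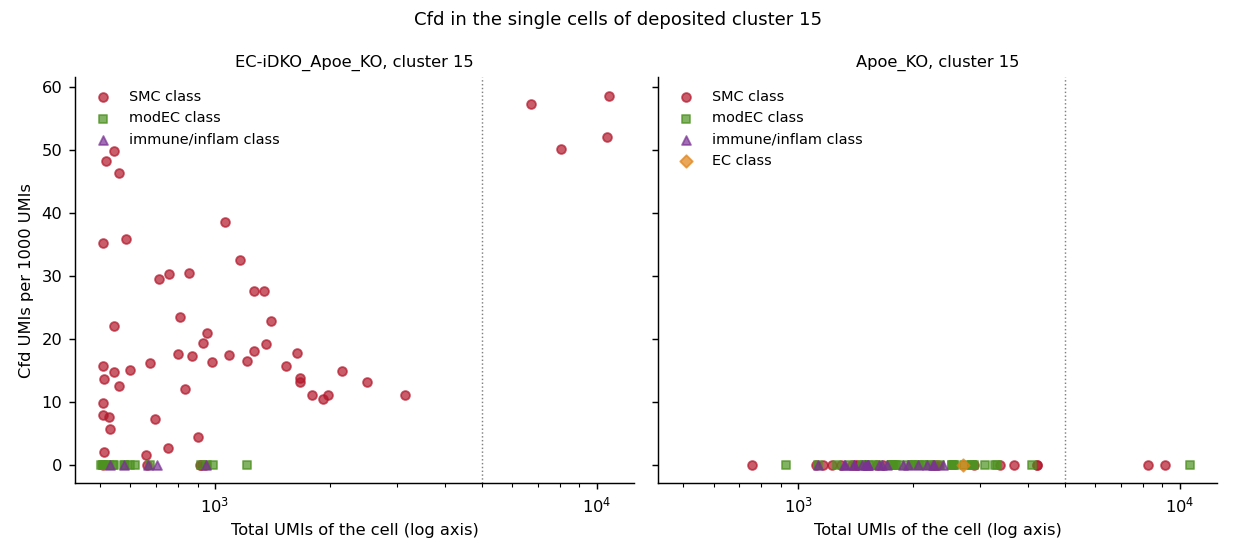
Cfd UMIs per 1000 UMIs (y axis) against total UMIs (x axis, log scale) of each cell of deposited cluster 15, in EC-iDKO_Apoe_KO (left) and Apoe_KO (right), coloured by deposited class; the dotted line marks 5000 UMIs. The 4 cells right of the line in the double knockout hold 50.2 to 58.7 Cfd UMIs per 1000, the other SMC class cells there 0 to 49.8, and all Apoe_KO cells 0.

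The other 55 SMC class cells of cluster 15 in the double knockout were shallow and mixed. They had 507 to 3142 UMIs with a median of 855. Cfd was detected in 50 of them, Car3 in 51, Adipoq in 29 and Plin1 in 6, and 4 held 0 of the 4 genes. Cfd ranged over 0, 19 and 41 UMIs (lowest, median and highest) and Car3 over 0, 7 and 29. Per 1000 UMIs their Cfd had a median of 15.6 and a highest value of 49.8, just under the 4 adipocyte-like cells. The 4 genes together made up a median of 2.33% of a cell's UMIs and at most 7.93%.

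As a set, these 55 cells held more smooth muscle transcripts than the 4 adipocyte-like cells, and some of them held endothelial ones. Acta2 was present in 55 of 55, with a median of 13.2 per 1000 UMIs (1.84 to 34.7), against 14.6 in the EC cluster 9. The 4 adipocyte-like cells ranged from 0.124 to 3.27, so the lowest of the 55 lay within their range. Their 9 smooth muscle markers summed to 35625 CPM, against 1738 CPM in the 4 cells. The endothelial genes Gpihbp1 (the endothelial anchor of lipoprotein lipase), Cd36 (a fatty acid receptor), Kdr (VEGF receptor) and Cldn5 (a tight junction protein) had 110 UMIs in them, 56 of these from Cd36. In the 4 adipocyte-like cells the same genes had 19 UMIs, all from Cd36, which was found in 4 of 4. Gpihbp1, Kdr and Cldn5 were at 0 in the 4 cells and had 25, 13 and 16 UMIs in the 55. These genes were not particular to cluster 15. In cluster 20 of the double knockout, next highest for Cfd, Gpihbp1 stood at 696 CPM, Cd36 at 1393 and Kdr at 763. The 55 cells had 448, 1003 and 233 CPM. Outside cluster 15, Cldn5 was highest in cluster 19, at 999 CPM, against 286 in the 55. At least 1 of Gpihbp1, Cd36, Kdr and Cldn5 was found in 25 of the 55 cells and at least 2 in 14. These counts were 31 and 1 of 4348 SMC cells outside the cluster, and 4 and 0 of the 4 adipocyte-like cells. Cd36 alone can thus give the first count. Gpihbp1, Cd36, Kdr and Cldn5 were singled out after their values were seen. The 14 cells with at least 2 of them had a median of 15.2 Cfd UMIs per 1000, and the 30 cells with 0 of them 14.2. Doublets were neither called nor removed, and their part in these mixed cells was not tested.

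The proportions of Car3, Adipoq and Retn to Cfd had overlapping intervals in the 2 sets. Per 100 Cfd UMIs there were 43.7 Car3 UMIs (40.3 to 47.4) in the 4 adipocyte-like cells and 48.9 (43.6 to 54.7) in the other 55. Adipoq stood at 5.15 and 5.97 per 100 Cfd UMIs in the same 2 sets, and Retn at 7.02 and 8.79. Scd1, the desaturase that makes monounsaturated fatty acids, differed, at 37.8 (34.7 to 41.1) in the 4 cells and 20.1 (17.1 to 23.5) in the 55. Fabp4, a fatty acid binding protein of both fat cells and capillary endothelium, went the other way, at 42.6 in the 4 cells and 82.2 in the 55.

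Outside cluster 15 the double knockout held 119 Cfd, 30 Car3, 6 Adipoq and 1 Plin1 UMIs, in 88, 27, 6 and 1 cells. Most of these cells held a single Cfd UMI (71 of 88), and 9 held 3 or more, with a maximum of 5. Those 9 lay in clusters 1, 2, 4, 5, 7, 8 and 20, and 6 of them also held Car3. No cell outside cluster 15 held 3 of the 4 genes. Per 100 Cfd UMIs there were 25.2 Car3 UMIs (16.3 to 37.9) outside the cluster, below the intervals within it, and 5.04 Adipoq UMIs (1.81 to 11.3), within them.

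Free RNA in droplets can give such UMIs in cells that do not transcribe a gene, so shares were compared after thinning each cell to 1000 UMIs, a depth that 1864 of 5489 double knockout cells and 2296 of 2428 Apoe_KO cells reached. Cfd was then found in 95.8% (78.9 to 99.9) of 24 cluster 15 cells of the double knockout. It was found in 0.533% (0.231 to 1.05) of 1500 SMC cells outside the cluster and in 1.79% (0.217 to 6.30) of 112 EC class cells, whose intervals overlap. Both EC class cells with Cfd were in cluster 20, and 0 of the other 101 EC class cells held it, which allows a share of up to 2.97%. Unthinned, the shares were 3.16% of EC class cells (median 763 UMIs), 1.13% (0.309 to 2.87) of EC class cells without cluster 20 and 2.77% of SMC class cells with cluster 15 included (median 771 UMIs). Of the 26 EC class cells in cluster 20, 8 held Cfd (30.8%, 14.3 to 51.8). No droplet without a cell was measured here, so the source of the UMIs outside cluster 15 was not tested. In Apoe_KO 0 of 2296 thinned cells held Cfd, which allows a share of up to 0.131%, including 0 of 78 in cluster 15.

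**Figure D3:**
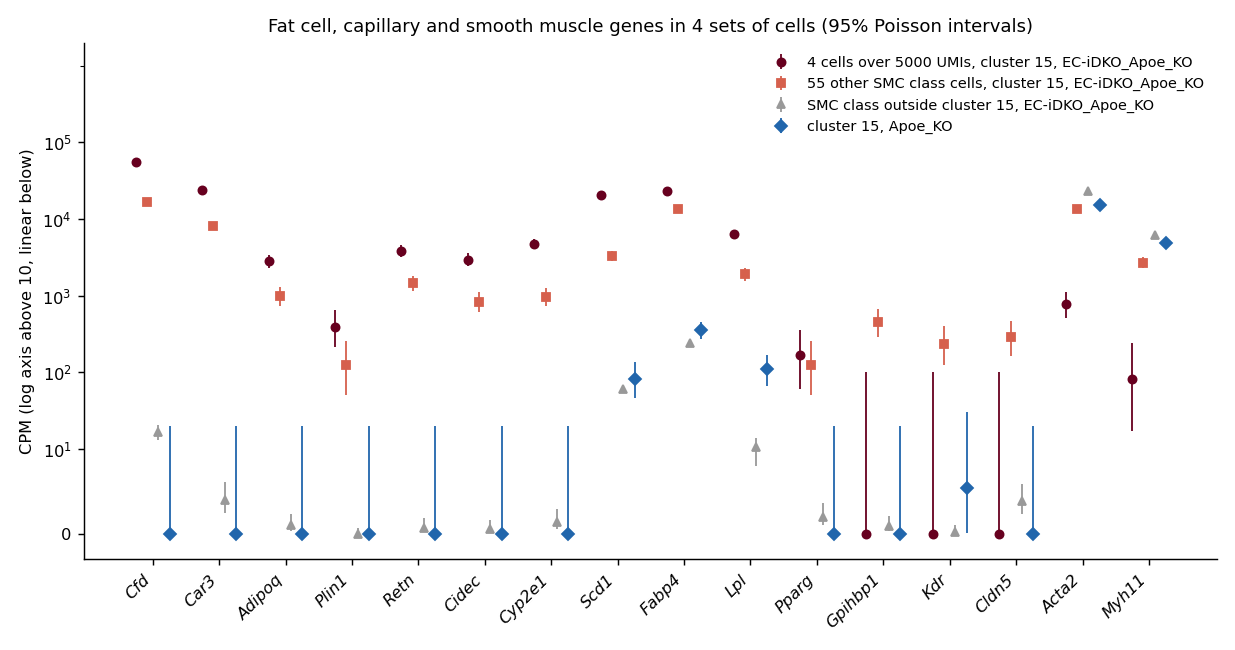
CPM (y axis; log scale above 10, linear below) of the 4 genes and of other fat cell, capillary and smooth muscle genes (x axis) in 3 sets of EC-iDKO_Apoe_KO cells and in cluster 15 of Apoe_KO; bars are exact 95% Poisson intervals. Cfd falls in the order 54615, 16488 and 16.4 CPM over the 3 double knockout sets and is at 0 UMIs in Apoe_KO, while Acta2 is lowest, at 772 CPM, in the 4 cells over 5000 UMIs.

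The genes whose pattern was most like that of the 4, by Pearson correlation of log2(CPM + 10) over the 21 double knockout clusters with the mean profile of the 4, were Cidec (r = 0.967), Retn (0.965), Adig (0.965), Pck1 (0.964) and Cyp2e1 (0.962). They were followed by Scd1 (0.936), Cxcl10 (0.926), Plaat3 (0.922), Hp (0.919), Thrsp (0.912), Gpx3 (0.896) and Eci1 (0.895). The ranking covered 8824 genes, and the clusters share 1 library and differ in depth. The 4 genes stood far higher in cluster 15 than in any other cluster, so r depends largely on that cluster. All 72 Pck1 UMIs of the double knockout lay in cluster 15, as did 98.1% of Cidec, 97.8% of Retn, 95.8% of Cyp2e1 and 90.7% of Hp UMIs. Plaat3 and Eci1 were spread more widely, with 28.4% and 13.7% in cluster 15.

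By ratio between libraries, the 12 highest of the 9681 ranked genes were led by Cfd, Car3 and Cyp2e1 (236 UMIs in the double knockout and 1 in Apoe_KO, 458-fold). Adipoq, Retn (225 and 2, 218-fold) and Cidec (156 and 0, at least 101-fold) came next. The remaining 6 were Sema3g, Serpina1b, Cyyr1, Hoxa9, Cd36 and Cldn5. Their UMIs were not all in the same place: of the 109 Sema3g UMIs, 4.59% lay in cluster 15, against 55.6% of the 135 Cd36 UMIs.

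Of 9 tested adipokines, 5 were higher, 1 lower and 3 not called, with a median log2 ratio of 0.83, against -0.006 over all genes tested. Cfd and Adipoq, chosen by this contrast, were among the 5 and count in the median. Over all genes tested, 9.53% were higher and 13.1% lower, and the list counts below stand against the same shares. Beyond Cfd, Adipoq and Retn, the retinol carrier gene Rbp4 was higher, at 448 CPM in the double knockout and 193 CPM in Apoe_KO (ratio 2.32, 2.20 to 2.45), though only 57 of its 3070 double knockout UMIs lay in the 59 cells. Lcn2, lipocalin 2, was lower, at 63.3 CPM in the double knockout and 125 CPM in Apoe_KO (ratio 0.505). Leptin is not among the genes with counts used here.

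Among the 4 measured perilipins only Plin1, chosen by this contrast, was higher. Plin2, the perilipin of most lipid-laden cells, was lower, at 46.0 CPM in the double knockout and 73.6 CPM in Apoe_KO (ratio 0.625, 0.548 to 0.710). In Apoe_KO 504 of its 979 UMIs were in the immune/inflam cluster 13. Within SMC cells outside cluster 15, Plin2 stood at 40.3 CPM in the double knockout and 31.1 CPM in Apoe_KO. Plin3 and Plin4 were not called, with ratios of 1.19 and 1.41. In the 4 adipocyte-like cells Plin2 stood at 662 CPM, Plin1 at 386 and Plin4 at 248 CPM.

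Of 14 tested droplet and lipolysis genes 7 were higher and 0 lower, and their log2 ratios had a median of 0.71. The chosen Plin1 was among the 7 and counts in that median. Among all genes tested, 9.53% were higher and 13.1% lower. The lipases were among the 7. Pnpla2 (adipose triglyceride lipase) stood at 99.2 CPM in the double knockout and 59.1 in Apoe_KO (ratio 1.68). Lipe (hormone-sensitive lipase) stood at 7.15 and 3.31 CPM (2.16), and Mgll (monoglyceride lipase) at 226 and 143 CPM (1.59). Dgat2, which adds the last acyl chain of triacylglycerol, had a ratio of 3.24. Without cluster 15 the Lipe ratio was 0.972 (0.555 to 1.66) and the Pnpla2 ratio 1.35 (1.20 to 1.50). In the list, 3 of 12 genes were then higher and 1 lower, with a median of 0.17. Of the 1551 Mgll UMIs of the double knockout, 34 lay in the 4 adipocyte-like cells and 41 in the other 55 SMC cells of cluster 15.

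Of 12 lipogenesis genes 7 were higher, 1 lower and 4 not called, with a median log2 ratio of 0.77. Scd1 stood at 205 CPM in the double knockout and 54.3 CPM in Apoe_KO (ratio 3.78, 3.46 to 4.14). Cluster 15 held 66.6% of its double knockout UMIs, and without that cluster the ratio was 1.29 (1.15 to 1.45). Fasn, the fatty acid synthase gene, had a ratio of 1.74 with cluster 15 and 0.972 without it, and Thrsp, a lipogenic regulator of fat and liver, 4.03 with it and 1.19 without it. The elongase gene Elovl6 was lower, at a ratio of 0.485, on 18 UMIs in the double knockout and 72 in Apoe_KO. Once cluster 15 was left out, 0 of the 11 lipogenesis genes still tested met the rule for higher. The rule for lower was met by 1 of them, and the middle log2 ratio of the list fell to 0.080. Among cells with 1000 UMIs or more and a mitochondrial share below 10%, 2 of 11 met the rule for higher and 0 that for lower. For comparison, 9.53% of all genes tested were called higher in the full libraries.

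**Figure D4:**
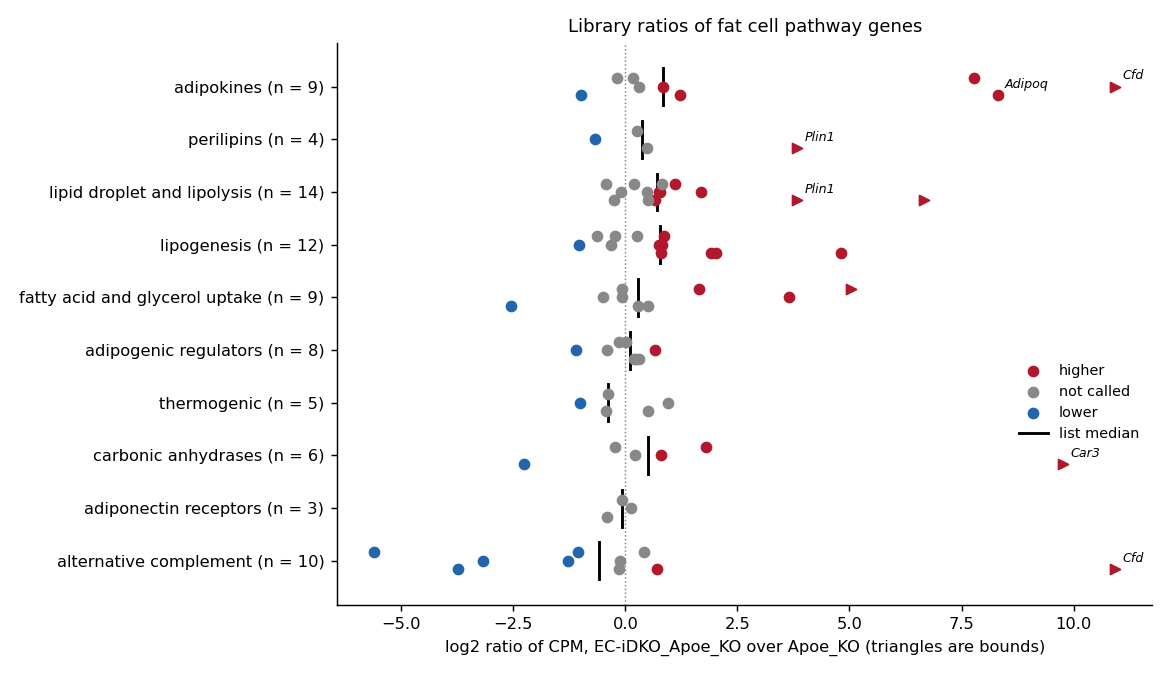
log2 ratio of CPM, EC-iDKO_Apoe_KO over Apoe_KO (x axis), of each tested gene (points; triangles are bounds where the count was 0) of 10 lists of fat cell pathway genes (rows), coloured by call, with the list median as a black bar. Cfd, Car3, Adipoq and Plin1 stand at or right of 3.83 on this scale, while list medians run from -0.59 (alternative complement) to 0.83 (adipokines). The lists that hold these chosen genes count them in the median.

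In the uptake list of 9 tested genes 3 were higher (Cd36, Fabp4 and Gpihbp1), 1 lower and 5 not called. The shares over all genes tested were 9.53% higher and 13.1% lower. Fabp4 stood at 517 CPM in the double knockout and 166 CPM in Apoe_KO (ratio 3.12, 2.96 to 3.30). In the double knockout 45.4% of its UMIs lay in cluster 15, and its next highest level, 8720.45 CPM, was in the 27 cells of cluster 20. In Apoe_KO its highest level outside cluster 15 was 236 CPM, in cluster 1. The other member of that family, Fabp5, was lower, at 28.3 CPM in the double knockout and 166 CPM in Apoe_KO (ratio 0.171), and in Apoe_KO 1703 of its 2206 UMIs were in the immune/inflam cluster 13. Lpl, lipoprotein lipase, was not called (63.0 and 44.5 CPM, ratio 1.42), but its location differed. In the double knockout 78.0% of its UMIs lay in cluster 15, whereas in Apoe_KO 243 of its 592 UMIs lay in cluster 13, and without cluster 15 the ratio was 0.323 (0.257 to 0.402).

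Cxcl10 and Hp showed the same shift of location. Hp, haptoglobin, had 226 UMIs in the double knockout, 205 of them in cluster 15, and 310 in Apoe_KO, of which cluster 8 held 181. Without cluster 15 its ratio was 0.132 (0.0807 to 0.206). Cxcl10, a chemokine gene, had 97 UMIs in the double knockout, 86 of them in cluster 15, and 820 in Apoe_KO, 526 of them in cluster 13.

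The 8 tested regulators of fat cell identity were 1 higher, 1 lower and 6 not called, beside 9.53% higher and 13.1% lower over all genes tested. Pparg, the nuclear receptor that drives fat cell differentiation, had 28 UMIs in the double knockout and 46 in Apoe_KO (ratio 1.18, 0.711 to 1.93), and 13 of the 28 were in cluster 15, against 0 of the 46. Cebpa was lower, with 14 UMIs in the double knockout and 58 in Apoe_KO (ratio 0.469), of which 36 were in cluster 13. Of 5 tested thermogenic genes 0 were higher and 1, Ppargc1a, was lower (ratio 0.492). Cidea, a droplet protein of brown fat and of some white fat, had 5 UMIs in the 4 adipocyte-like cells. Ppargc1a, Prdm16, Dio2 and Cox7a1 had 0 there. With 36254 UMIs in the 4 cells, the upper Poisson bound of a 0 is 102 CPM. In the double knockout SMC cells outside cluster 15, Prdm16 stood at 69.1 CPM and Ppargc1a at 2.55, both under that bound. The zeros thus cannot set the 4 cells apart from those. Ucp1, the uncoupling protein that defines brown fat, is not among the genes with counts used here.

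For the products' partners, 3 of 3 adiponectin receptors were not called: Adipor1 had a ratio of 0.755, Adipor2 of 1.09 and the T-cadherin gene Cdh13 of 0.948. Of 6 tested carbonic anhydrases 3 were higher, the chosen Car3 among them, and 1 lower. This stands beside 9.53% higher and 13.1% lower over all genes tested. Beyond Car3, the mitochondrial Car5b was higher (19.1 CPM in the double knockout and 11.0 in Apoe_KO, ratio 1.74), with 42.7% of its double knockout UMIs in cluster 15 and a ratio of 0.999 without it. Car8 was higher (ratio 3.46) with 0 UMIs in cluster 15 and 35 of its 41 UMIs in the EC cluster 9.

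The alternative complement pathway, on which factor D acts, did not follow Cfd: of 10 genes 2 were higher, 5 lower and 3 not called, with a median log2 ratio of -0.59. C3 stood at 45.7 CPM in the double knockout and 94.8 CPM in Apoe_KO (ratio 0.482). Factor B, the substrate of factor D, had 19 UMIs in the double knockout and 90 in Apoe_KO (Cfb, ratio 0.410), and properdin 7 and 123 (Cfp, ratio 0.110). The receptor genes C3ar1 and C5ar1 had ratios of 0.0205 and 0.0747, and most of their Apoe_KO UMIs were in cluster 13. The adipocyte-like cells held 84 C3 UMIs (2317 CPM) and 7 Cfb UMIs.

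Markers of other cells moved between the libraries as well. Their counts stand beside 9.53% higher and 13.1% lower over all genes tested. Of 11 tested adipocyte markers 8 were higher, with a median log2 ratio of at least 3.83, the bound of Plin1. Of the 7 that are not among the 4 chosen genes, 4 were higher (Cidec, Retn, Lipe and Fabp4), 1 lower and 2 not called, with a median of 1.11. Of 12 endothelial markers 11 were higher (median 1.94), and 3 of 3 erythroid markers were higher (4.24). In contrast, 10 of 10 macrophage markers (-4.76) and 8 of 10 fibroblast markers (-1.30) were lower, and 8 of 9 smooth muscle markers were not called (0.22). Of 6 adipose progenitor markers 3 were higher (Icam1, F3 and Ly6a), 2 not called and 1, Pdgfra, lower (ratio 0.444, 0.321 to 0.604). All 6 were at 0 in the 4 adipocyte-like cells, and they summed to 1294 CPM in the EC cluster 9 of the double knockout. Of 3 tested skeletal muscle markers, Car3 was higher, Ckm lower (ratio 0.412) and Mylpf not called. No skeletal muscle marker other than Car3 had a UMI in the 59 cells. The part of these differences, or of depth, in the presence of the 4 genes was not tested.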

How the data were processed

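Cells of digested aortas were measured by 3' single-cell RNA-seq, 1 library per genotype. The labels' protocols name a CD31 microbead step, although the label of cell type reads all cells, and they do not mention the fat around the vessel. The deposited table holds counts (UMIs per cell and gene). The submitters' processing notes name Cell Ranger, Seurat and mm10, with no versions given in the sources used here. The deposited mitochondrial ratio is a fraction, with values up to 20.0%, and the deposited UMI total per cell before the gene filter was never under 500. The deposited cluster numbers and class names are of the kind other, assigned by the authors. Each of the 2428 Apoe_KO barcodes was deposited 2 times with identical counts and was counted once.

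UMIs were summed per population and scaled to 1000000 (CPM). Intervals at 95% were exact Poisson for sums, conditional binomial for ratios and Clopper-Pearson for shares, all covering counting error only. A count of 0 was set to a floor of 3 UMIs over the library or population, and the limits given for a count of 0 are 3 counts of the total rather than interval bounds. Cells are not replicates, so no test was run. The call rule was tested on simulated data. The 4 genes and all gene lists were chosen with earlier results of these data known. Named genes were the 4 members, up to 4 genes per list with the largest absolute log2 ratio, the 12 most correlated and the 12 of highest ratio (mitochondrial, ribosomal, haemoglobin, immunoglobulin, predicted and sex-linked genes left out), and others were picked for their role or after their values were seen. Not every gene counted in the lists is reported here by name. The cell sets split at 5000 UMIs were defined after the data were seen. Positions came from GENCODE M21 and promoters from RefSeq. Tools were Python 3.11.15, scipy 1.17.1 and pandas 2.3.3. Alternatives covered cell filters, thinning, scaling (TMM of edgeR 4.0.16 and the median of ratios of DESeq2 1.42.0, as factors only), floors, count filters and duplicated barcodes.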

Additional observations from a re-analysis of the deposited data

How the results depend on the processing

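The ratio of each of the 4 genes stayed above 1 under every alternative that gave a value. Plin1 fell under the 20 UMIs needed for a call under the cell filter (4 UMIs), after thinning (5 UMIs, interval 0.667 to 4.79) and without the cells over 5000 UMIs (8 UMIs). A cell filter (1000 UMIs or more, mitochondrial share below 10%), which removes the 4 adipocyte-like cells, gave lower bounds of 557-fold (Cfd), 239.9-fold (Car3) and 3.89-fold (Plin1). Thinning to 1000 UMIs gave 251, 107.2 and 2.05, with 37.0 for Adipoq (interval 6.14 to 1508). Without cluster 15 the values were at least 77.1 (Cfd), at least 19.4 (Car3) and 11.7 (Adipoq), and Plin1 gave none. That Adipoq value rests on 6 UMIs in the double knockout and 1 in Apoe_KO, with an interval of 1.42 to 537. A floor of 1 UMI gave 5863, 2613 and 42.7 for Cfd, Car3 and Plin1, and keeping every deposited row 3909, 1742 and 28.5. Without the cluster 15 cells over 5000 UMIs (4 in the double knockout and 3 in Apoe_KO), an alternative chosen after seeing the data, the bounds were 675, 312 and 5.19, and cluster 15 held 88.6% of Cfd, 93.8% of Car3 and 90.2% of Adipoq UMIs. The share in cluster 15 was 92.7% (Cfd), 95.1% (Car3) and 75.0% (Plin1) under the cell filter, and 96.9% (Cfd) and 100% (Plin1) after thinning. Double knockout cells with at least 1 of the genes made up 2.97%, and 2.20% after thinning.

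The adipocyte median of 3.83 became 3.09 under the cell filter, 4.44 after thinning, -0.040 without cluster 15 (where 3 of 7 genes were higher), 3.19 with no count filter, 7.77 at 100 UMIs and 3.13 without the cells over 5000 UMIs. The uptake median turned to -0.053 without cluster 15 and -0.060 without the cells over 5000 UMIs, and that of the regulators to -0.053 without cluster 15. The brown adipocyte median, on 1 gene, turned to 0.82 on 2 genes with no count filter. Genes called lower numbered 1743, 987 after thinning and 1025 at 100 UMIs. TMM and median-of-ratios scaling raised log2 ratios by 0.012 and 0.018 and changed no member's direction. No paired analysis was possible because each genotype has 1 library. Depth limits Plin1, which rests on 22 UMIs.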
